A study of Mus musculus with 6 samples.

Results

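The Hox genes code for homeodomain transcription factors that give cells along the body axis their positional identity. In mammals they lie in 4 clusters, A to D, and are numbered by 13 paralogue groups, so that a gene nearer the 3′ end of its cluster has a lower number and is expressed farther to the anterior. The neural crest that fills the face and the first pharyngeal arch is known for expressing no Hox gene, the crest of the arches behind it for Hox genes of the groups 2 and 3, and the crest and neural tube of the trunk for groups of higher number. The members described here are the protein-coding genes of the deposited count table whose identifier maps, in the GENCODE M21 annotation, to a symbol of Hox, a cluster letter and a number. They were 39 of 46983 genes, and all 39 such genes of the annotation were in the table.

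RNAseq was read for NCCs (neural crest cells) sorted by their GFP from mouse embryos of E11.25, in 3 control libraries and 3 libraries deficient in BAF155 and BAF170 (called deficient here). BAF155 and BAF170, encoded by Smarcc1 and Smarcc2, are core subunits of the BAF chromatin remodelling complex. The deficient embryos were Wnt1Cre/+;BAF155flox/flox;BAF170flox/flox;Rosa26mTmG/+, and the controls were Wnt1Cre/+;BAF155flox/+;BAF170flox/+;Rosa26mTmG/+. Both groups therefore carried the Cre and the reporter, which turns from membrane Tomato to membrane GFP in cells with Cre and in their descendants, and the controls also lost 1 copy of each gene in these cells. Wnt1-Cre is also active in the dorsal neural tube, so the GFP gate can hold central nervous system progenitors beside NCCs. By the study's methods the sorted cells came from 3 embryos of each genotype. The labels number 3 replicates in each group and do not tie a library to an embryo, so p-values measure the spread between these libraries.

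The libraries held 8191219 to 11661941 counts in the controls and 12633319 to 19808620 in the deficient group, so that the ranges of depth did not overlap. Smarcc1 was 44.1 ± 10.1 CPM (SD, n = 3) in the controls and 26.7 ± 2.48 in the deficient libraries, with a log2 fold change of −0.71 and an adjusted p of 0.0676 (edgeR quasi-likelihood test, Benjamini-Hochberg). Smarcc2 was 91.5 ± 1.52 and 85.0 ± 2.38 CPM, with a log2 fold change of −0.11 and an adjusted p of 0.251. CPM is the count scaled to the library size after TMM normalization, and reads of the exons that remain after deletion are counted with the others. Summed over the 12 listed macrophage markers, the libraries held 12254 to 14214 CPM in the controls and 14331 to 15653 in the deficient group. The 16 mesenchymal crest markers summed to 101 to 181 CPM and to 51.1 to 83.2 CPM. None of the listed markers of these lists was at 0 in every library. RNA of these macrophage markers was thus present in all 6 libraries labelled as NCCs, each of the 12 markers reaching at least 19.4 CPM in each library, and a Hox CPM is a share of the whole library with this RNA included. Its part in the Hox levels was not tested. In such bulk RNA, fewer cells of a type and less RNA per cell cannot be told apart.

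All Hox genes together took a small part of each library. Their raw counts were 653, 759 and 597 in the controls and 657, 643 and 601 in the deficient libraries. These counts overlapped between the groups, at 670 ± 82.3 against 634 ± 29.1 (SD, n = 3 each; exact two-sided permutation test, p = 0.7). They are not scaled for depth, which was higher in every deficient library, so this test does not compare Hox levels. On library totals without TMM, the Hox genes made up 67.6 CPM (95% exact Clopper-Pearson interval 62.5 to 73.0), 92.7 (86.2 to 99.5) and 51.2 (47.2 to 55.5) in the controls. In the deficient libraries they made up 52.0 (48.1 to 56.1), 38.8 (35.9 to 42.0) and 30.3 (28.0 to 32.9). The intervals cover counting error only. Every member had a count in at least 1 library, and 30 of the 39 had a count in all 6. A count of 0 allowed up to 3 counts, which is 0.151 to 0.366 CPM on library totals, depending on the library.

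The clusters lie on 4 chromosomes of GRCm38, cluster A at chr6:52155590-52260880 on the minus strand and the others on the plus strand, at chr11:96194316-96368256 for B, chr15:102921103-103036852 for C and chr2:74668310-74765142 for D. RefSeq start sites of build GRCm38.p6 gave 24 promoter windows, each from 250 bases before to 50 after the start, for 22 of the 39 genes and for 11 of the 21 genes that entered the test. The windows of 3 genes are shown, in the order of the fold changes of their genes: Hoxa5 was the member that passed every limit of a call, and Hoxb4 and Hoxb8 were the members with at least 2 CPM whose fold changes were nearest to 0. Their windows lie at chr6:52204538-52204837 on the minus strand, chr11:96318017-96318316 on the plus strand and chr11:96281655-96281954 on the plus strand. Capitals mark matches on either strand to 4 motifs: TGATNNAT, bound by Pbx and Hox proteins together, TTTATG, bound by Cdx factors, AGGTCA, bound by retinoic acid receptors, and GGAATG, bound by Tead factors.
Hoxa5: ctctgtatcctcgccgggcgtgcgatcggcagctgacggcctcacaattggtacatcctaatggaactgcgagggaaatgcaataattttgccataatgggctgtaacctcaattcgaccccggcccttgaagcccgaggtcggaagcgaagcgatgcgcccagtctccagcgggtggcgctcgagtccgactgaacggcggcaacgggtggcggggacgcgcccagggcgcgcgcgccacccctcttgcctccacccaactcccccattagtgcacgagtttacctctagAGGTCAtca
Hoxb4: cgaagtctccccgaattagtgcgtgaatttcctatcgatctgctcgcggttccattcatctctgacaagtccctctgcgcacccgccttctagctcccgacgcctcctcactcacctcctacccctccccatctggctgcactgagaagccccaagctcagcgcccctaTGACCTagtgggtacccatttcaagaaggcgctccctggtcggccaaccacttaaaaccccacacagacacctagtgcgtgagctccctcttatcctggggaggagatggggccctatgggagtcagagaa
Hoxb8: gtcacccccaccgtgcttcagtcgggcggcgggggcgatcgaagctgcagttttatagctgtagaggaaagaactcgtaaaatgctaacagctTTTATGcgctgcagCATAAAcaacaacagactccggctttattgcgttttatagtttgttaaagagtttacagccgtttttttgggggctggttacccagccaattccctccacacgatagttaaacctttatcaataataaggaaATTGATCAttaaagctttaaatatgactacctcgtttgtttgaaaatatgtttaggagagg
The Hoxa5 and Hoxb4 windows held 1 match to AGGTCA each. The Hoxb8 window held 1 match to TGATNNAT and 2 to TTTATG. It had a GC content of 42.3%, against 61.7% at Hoxa5 and 58.0% at Hoxb4. Over the 24 Hox windows the median GC content was 57.7% and the median ratio of observed to expected CpG was 0.626, against 52.7% and 0.383 over all 32817 windows of the RefSeq table. AGGTCA was in 7 of the 24 windows (29.2%, against 16.3% of all windows), those of Hoxa5, Hoxb4, Hoxc4, Hoxd3, Hoxd4, Hoxd8 and Hoxd10. TTTATG was in 5 (20.8%, against 11.9%), TGATNNAT in 4 (16.7%, against 8.86%) and GGAATG in 2 (8.33%, against 14.7%). In the Hoxd3 window the match to TTTATG and the match to AGGTCA shared bases. A match is a description of these letters and not a bound site.

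Levels of different Hox genes were compared per kilobase of exon, in CPM per kilobase. In the controls the highest levels were in paralogue groups 4 to 9, and those of groups 1 and 10 to 13 were low. Hoxb9 stood first with 3.89 ± 1.79 (SD, n = 3). It was followed by Hoxb6 with 2.61 ± 1.29, Hoxb4 with 2.28 ± 0.81, Hoxa5 with 2.05 ± 0.65, Hoxc4 with 1.92 ± 0.54, Hoxb8 with 1.89 ± 1.0 and Hoxa6 with 1.83 ± 1.21. Each of these 7 lay within the SD of its neighbour in the order. In the deficient libraries Hoxb4 stood first with 1.59 ± 0.52, followed by Hoxb9 with 1.54 ± 0.64, Hoxb8 with 1.31 ± 0.53, Hoxa6 with 1.21 ± 0.30 and Hoxb6 with 1.17 ± 0.34, again within the SD of their neighbours. The levels of groups 1 and 10 to 13 were low in both the control and the deficient libraries. Hoxc4, the lowest-numbered gene of cluster C, was not, at 1.92 ± 0.54 and 1.02 ± 0.44. The 3 members of group 1 lay between 0.08 and 0.27 CPM per kilobase in the controls and between 0.05 and 0.18 in the deficient libraries. Hoxa2, which patterns the second pharyngeal arch, was at 0.76 ± 0.30 and 0.32 ± 0.11 CPM per kilobase. Among groups 10 to 13, Hoxb13 and Hoxc12 had no count in 5 of the 6 libraries. The exception was deficient replicate 3, the deepest library, with 2 counts and 1 count.

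**Figure D1:**
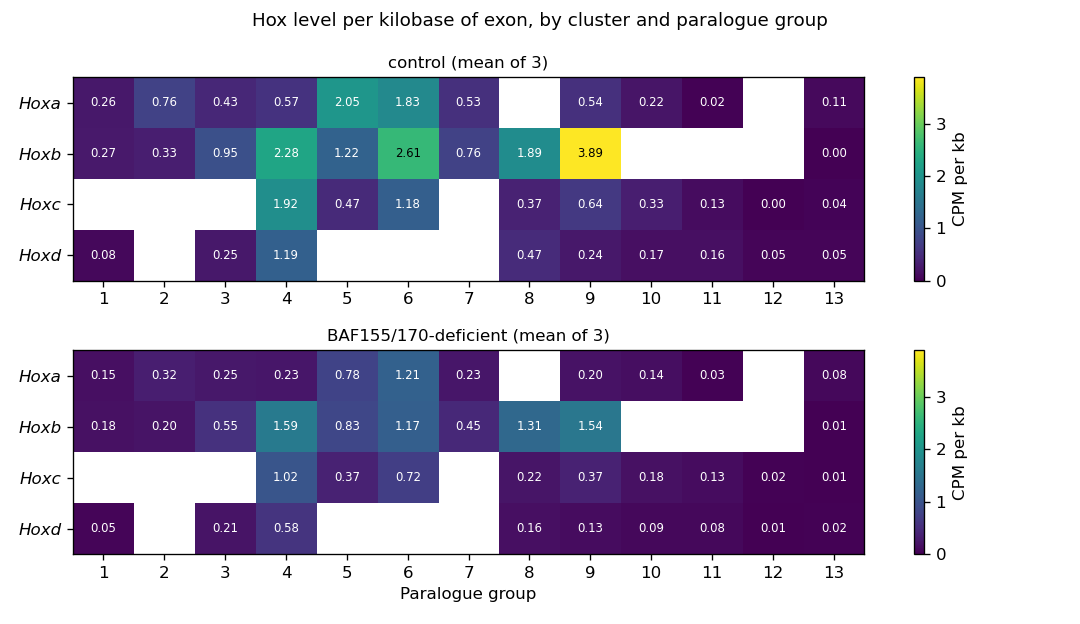
Mean level of the 39 Hox genes per kilobase of exon (CPM per kilobase), by cluster (rows) and paralogue group (columns), in the 3 control libraries (top) and the 3 deficient libraries (bottom); white squares are genes the mouse does not have. The highest square is Hoxb9 in the controls, at 3.89, and groups 4 to 9 hold the brighter squares in both maps.

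Of the 39 genes, 21 had enough counts to be tested in the fit of condition over all 13961 genes, and 18 did not. The filter asked for about 10 counts at the median depth in at least 3 libraries. A member could thus enter through the controls alone, as Hoxa7, Hoxc8 and Hoxd8 did, so the fold changes of these genes were not independent of the filter. Calls used the limits given in the study's methods: an adjusted p (Benjamini-Hochberg) no higher than 0.1, a log2 fold change of 0.58 or more in either direction, and 2 CPM or more in mean. All 21 tested Hox genes had a log2 fold change (deficient against control) below 0 with TMM normalization, while with the libraries scaled to 35 embryonic markers (listed genes of crest, sensory, autonomic, glial and neural tube identity with at least 2 CPM) 9 of the 21 did. Over all tested genes 52.3% were below 0 with TMM and 9.75% with the marker scaling. The median of the 21 was −0.76, against −0.02 over all genes, with quartiles of −1.14 and −0.55 and a range from −1.53 at Hoxd8 to −0.22 at Hoxd3. Scaled to the embryonic markers, the median of the 21 was 0.10 and that of all genes 0.83. Low genes as a whole leaned the same way, since the 5272 tested genes with a mean in the same range of 0.825 to 6.98 CPM had a median of −0.27, with 71.3% below 0 and 7.47% called lower.

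One of the 21 genes, Hoxa5, was called lower, which is to be read against 4.88% of all tested genes, and none was called higher, against 0.0573%. As all 21 were below 0, the count higher was also 0 at an unadjusted p under 0.05, and it was 0 in DESeq2 (0.107% of all genes) and limma-voom (0.0501%). At an unadjusted p under 0.05, 9 of the 21 were lower, against 15.2% of all tested genes. In 4 of the 21, Hoxa5, Hoxa7, Hoxc8 and Hoxd8, every deficient library lay below every control, against 16.4% of all tested genes. Hoxa7, Hoxc8 and Hoxd8 passed the filter on counts through the controls alone, so their lack of overlap was not independent of that filter. The same holds for their fold changes and p-values, and Hoxa7 and Hoxd8 are among the 9 genes above. The same single gene passed an adjusted p of 0.1 without the other limits, against 7.75% of all tested genes. The number called lower depended on the fit. DESeq2 called 4 of the 21 (6.26% of all genes) and limma-voom 2 (5.94%), Hoxa5 being among them both times. Library totals in place of TMM called 3 (4.95%), a fit without a filter on low counts 6 (3.02%), and a filter of 0.5 CPM 1 (4.35%). None was called at a stricter adjusted p of 0.05 (0.673%) or with scaling to the embryonic markers (0.544%). With the limit on adjusted p alone, the shares of all genes that passed and were lower were 8.63% in DESeq2, 9.10% in limma-voom, 7.21% with library totals, 5.31% without a filter, 7.10% with the filter of 0.5 CPM and 1.04% with the marker scaling, and the Hox genes numbered 4, 2, 4, 6, 1 and 0.

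Single libraries also decided the number of calls. Without control replicate 3, 8 Hox genes were called lower (8.45% of all genes), and without deficient replicate 1, 4 were (7.24%). None was called when control replicate 1 (0.00%) or 2 (0.426%), or deficient replicate 2 (1.53%) or 3 (0.119%), was left out. On the adjusted p alone, 11 passed without control replicate 3 (14.0% of all genes) and 4 without deficient replicate 1 (10.9%). None passed without each of the other libraries, in the same order as above (0.00%, 0.510%, 2.10% and 0.133% of all genes). In the fit over all 6 libraries, control replicate 2 was the highest library in 15 of the 21 genes and deficient replicate 3 the lowest in 16.

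**Figure D2:**
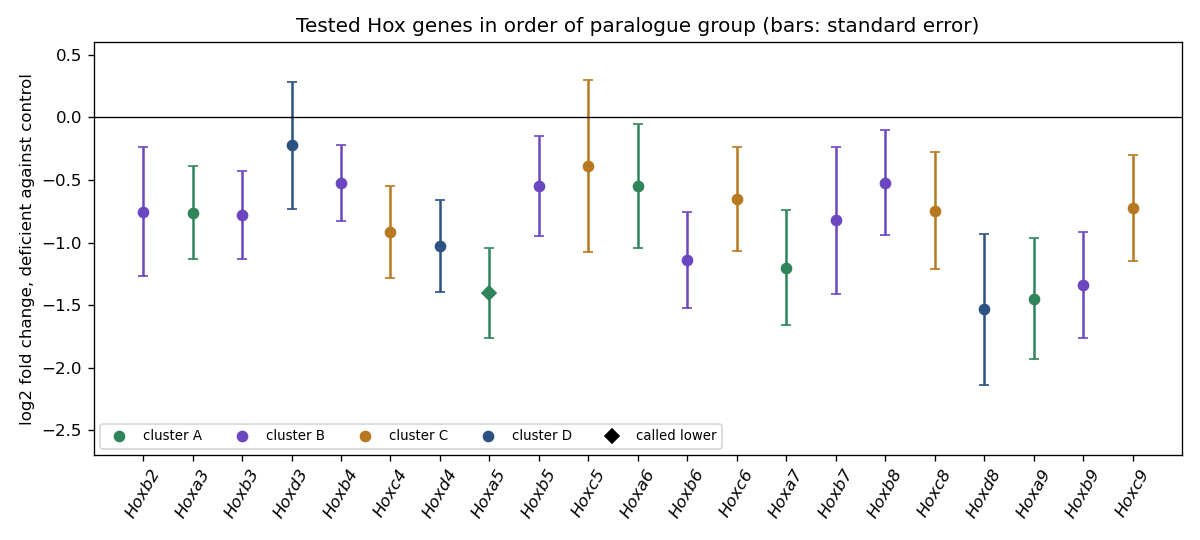
Log2 fold change (deficient against control, edgeR with TMM normalization) of the 21 tested Hox genes, in order of paralogue group; bars are standard errors, colours are clusters and the diamond marks the gene called lower. All 21 points lie below 0, from −1.53 at Hoxd8 to −0.22 at Hoxd3, and Hoxa5 at −1.41 is the diamond; with libraries scaled to embryonic markers 12 of the 21 would lie above 0.

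The tested members of paralogue groups 2 and 3 pattern the hindbrain and the pharyngeal arches behind the first. Hoxa3, which is needed for the thymus and the parathyroids, had 2.98, 2.94 and 1.89 CPM in the control libraries and 1.57, 2.08 and 0.95 in the deficient libraries. Hoxb3 had 4.04, 5.48 and 2.54 CPM against 3.21, 2.14 and 1.66. Both genes were highest in controls and lowest in deficient replicate 3, and in both the groups overlapped. The log2 fold change was −0.76 (SE 0.37) at Hoxa3 and −0.78 (SE 0.35) at Hoxb3, with adjusted p of 0.210 and 0.175 (edgeR, Benjamini-Hochberg). Hoxb2 and Hoxd3 were below 2 CPM, with log2 fold changes of −0.75 and −0.22 and adjusted p of 0.368 and 0.815. The summed level of all 8 genes of groups 1 to 3 was 11.5, 14.2 and 8.86 CPM in the controls and 8.62, 7.27 and 4.79 in the deficient libraries. These sums did not overlap, with a ratio of deficient to control of 0.599 (exact permutation test, p = 0.1, the smallest that 3 against 3 can give). Hoxa3, Hoxb2 and Hoxb3 share 25.4%, 27.3% and 52.9% of their exonic bases with genes on the other strand. Hoxd3 shares 62.3% with Hoxd4 and another gene on its own strand. How reads in such shared bases were assigned is not given in the sources used here.

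Paralogue group 4 is expressed from the caudal hindbrain into the spinal cord and acts at the neck vertebrae. Hoxb4, known also from blood stem cells, had 4.15, 8.16 and 5.25 CPM in the control libraries and 5.56, 2.99 and 3.66 in the deficient libraries. Hoxc4 had 5.42, 6.02 and 3.36 CPM against 3.45, 3.12 and 1.33. Hoxd4 had 4.15, 3.88 and 2.46 CPM against 1.57, 2.51 and 1.04. In each of the 3 genes deficient libraries reached into the range of the controls. The log2 fold changes were −0.52 (SE 0.30) at Hoxb4, −0.92 (SE 0.37) at Hoxc4 and −1.03 (SE 0.37) at Hoxd4, with adjusted p of 0.289, 0.143 and 0.112. Hoxa4 was too low to be tested, with 9, 9 and 7 counts against 6, 9 and 2. Hoxd4 shares 52.3% of its exonic bases with Hoxd3 and another gene of the same strand.

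Hoxa5, which patterns the neck and upper thorax and is needed in the developing lung, was the gene that was called. It had 27, 39 and 42 counts in the controls and 26, 23 and 20 in the deficient libraries, or 2.87, 5.22 and 3.45 CPM against 2.04, 1.41 and 0.95. Every deficient library lay below every control. The mean fell from 3.85 ± 1.22 to 1.46 ± 0.55 CPM (SD, n = 3), with a log2 fold change of −1.41 (SE 0.36) and an adjusted p of 0.0719 (edgeR, Benjamini-Hochberg). It shares no exonic base with another annotated gene. Over the other fits the adjusted p ran from 0.0036 to 0.237. The call was lost, with the gene still lower, in the fits that left out control replicate 1 (0.215), control replicate 2 (0.229), deficient replicate 2 (0.121) and deficient replicate 3 (0.226), and with scaling to the embryonic markers (log2 fold change −0.56, adjusted p 0.237). In the same group, Hoxb5, known from the vagal crest that forms the enteric nervous system, had 3.72, 4.68 and 1.81 CPM against 3.29, 2.20 and 1.47. Its groups overlapped, with a log2 fold change of −0.55 (SE 0.40) and an adjusted p of 0.406. Hoxc5 had 1.17, 2.27 and 0.903 CPM against 2.43, 0.489 and 0.475, so that its highest library was deficient replicate 1.

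Groups 6 to 8 pattern the thoracic axis. Hoxb6 had 4.89, 7.76 and 2.71 CPM in the control libraries and 2.90, 2.44 and 1.57 in the deficient libraries. Deficient replicate 1 alone reached into the control range, and the log2 fold change was −1.14 (SE 0.39) with an adjusted p of 0.104, just outside the limit. Hoxc6 had 2.87, 4.41 and 1.23 CPM against 1.64, 2.02 and 1.57, so that its lowest library was control replicate 3. Its log2 fold change was −0.65 (SE 0.42), with an adjusted p of 0.331. Hoxb8, known also from myeloid progenitors, had 3.40, 8.03 and 3.53 CPM against 4.70, 3.73 and 1.95, with a log2 fold change of −0.52 (SE 0.42) and an adjusted p of 0.459. Control replicate 2 alone lay above all 3 deficient libraries. The other tested genes of these groups, Hoxa6, Hoxa7, Hoxb7, Hoxc8 and Hoxd8, were between 0.825 and 1.33 CPM in mean, with log2 fold changes from −1.53 at Hoxd8 to −0.55 at Hoxa6 and adjusted p from 0.125 to 0.504. Hoxa7 shares 20.4% of its exonic bases with an antisense gene.

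Group 9 acts at the thoracic and lumbar levels and in the limbs. Hoxb9 had 97, 108 and 64 counts in the controls and 74, 56 and 56 in the deficient libraries, or 10.3, 14.4 and 5.25 CPM against 5.80, 3.42 and 2.66. The groups overlapped by deficient replicate 1 and control replicate 3. The log2 fold change was −1.34 (SE 0.42) with an adjusted p of 0.104. Hoxa9, which also maintains blood progenitors, had 2.55, 4.95 and 1.48 CPM against 1.57, 1.04 and 0.665, with a log2 fold change of −1.45 (SE 0.49) and an adjusted p of 0.101. Its groups overlapped as well. These 2 genes and Hoxb6 lay just outside the limit of 0.1, and DESeq2 called all 3 of them lower. Hoxc9 was lower still in level, with a log2 fold change of −0.72 and an adjusted p of 0.294. No member of groups 10 to 13 could be tested, and none held more than 43 counts over the 6 libraries.

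**Figure D3:**
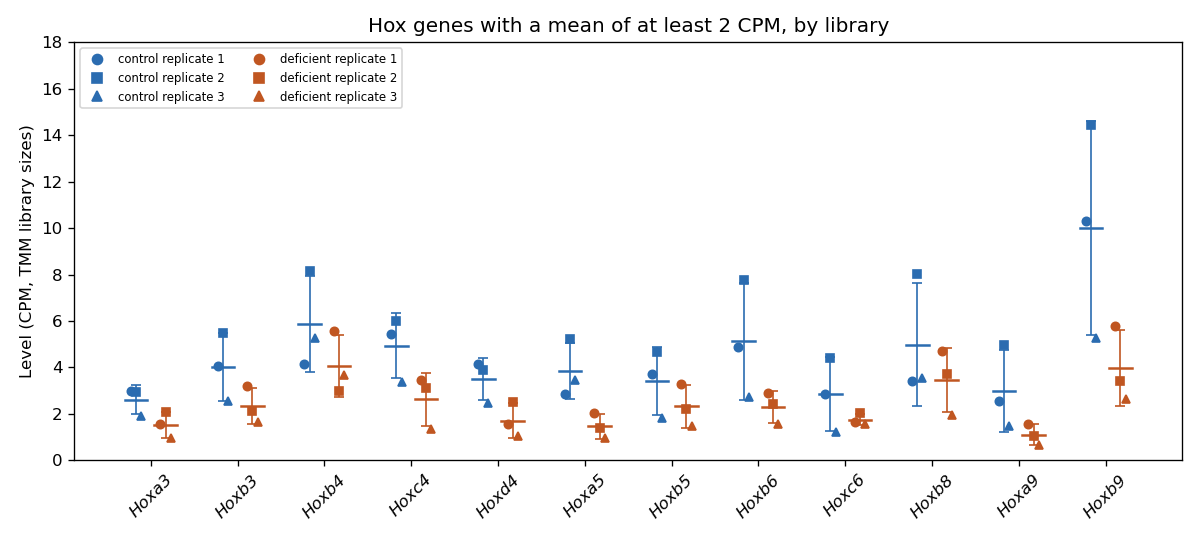
Level (CPM on TMM library sizes) of the 12 Hox genes with a mean of at least 2 CPM, in order of paralogue group, in each control (blue) and deficient (orange) library; the long bar is the mean and the error bar the SD of 3 libraries. Hoxa5 is the gene in which all 3 orange points lie below all 3 blue points, and control replicate 2 is at or near the top in each gene.

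The 18 untested members held 1 to 64 counts each over all libraries, with means of at most 0.957 CPM. The mean was lower in the deficient libraries in 14 of them and higher in 4, Hoxa11, Hoxb13, Hoxc11 and Hoxc12. Hoxa2 came nearest to the filter, with 1.70, 1.61 and 0.739 CPM against 0.783, 0.489 and 0.427. It was higher in the controls by 2.38-fold in mean, but deficient replicate 1 overlapped control replicate 3 (exact permutation test, p = 0.2). Counting all 39 members, the mean was lower in the deficient libraries in 35, with TMM normalization. The share over all genes as low as the untested members was not counted. Of the tested genes in the CPM range of the tested Hox genes, 71.3% were below 0.

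Summed per library, the Hox genes had 69.5, 102 and 49.0 CPM in the control libraries and 51.5, 39.3 and 28.5 in the deficient libraries. The mean was 73.3 ± 26.5 against 39.8 ± 11.5 CPM (SD, n = 3), a ratio of 0.542. Deficient replicate 1 lay above control replicate 3, and the exact two-sided permutation test gave p = 0.2, where 0.1 is the smallest possible. As the groups overlapped by control replicate 3 and deficient replicate 1 only, leaving out either one separated them by construction. With any other library left out they still overlapped (exact permutation test, p = 0.2 or 0.3). Hoxb9 was the largest single source of counts, and without it the ratio was 0.565. Without the 7 members that share at least 20% of their exonic bases with another gene, a comparison added after the values were seen, it was 0.536.

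By cluster, the sums of A and D did not overlap between the groups and those of B and C did. Cluster A (11 genes) had 15.7, 22.3 and 11.2 CPM in the control libraries and 9.40, 8.49 and 5.6 in the deficient libraries, a ratio of 0.476 (exact permutation test, p = 0.1). Cluster D (9 genes) had 7.34, 10.2 and 5.66 CPM against 4.31, 4.77 and 2.85, a ratio of 0.515 (exact permutation test, p = 0.1). Cluster B (10 genes), which held about as many counts as the other clusters together, had 33.5, 51.8 and 23.8 CPM against 28.0, 18.9 and 14, a ratio of 0.558 (p = 0.2, exact permutation test). Cluster C (9 genes) had 12.9, 17.3 and 8.29 CPM against 9.71, 7.15 and 6.12, a ratio of 0.598 (p = 0.2, exact permutation test). The median log2 fold change of the tested genes was −1.20 in A (5 genes), −0.77 in B (8), −0.72 in C (5) and −1.03 in D (3). With scaling to the embryonic markers the sums of B and C were higher in the deficient libraries, by 0.05 and 0.16 on the log2 scale, and those of A and D were lower, at −0.17 and −0.06. The groups then overlapped in A, B and D (exact permutation test, p = 0.3, 0.7 and 0.9) and not in C, where every deficient library lay above every control (p = 0.1).

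**Figure D4:**
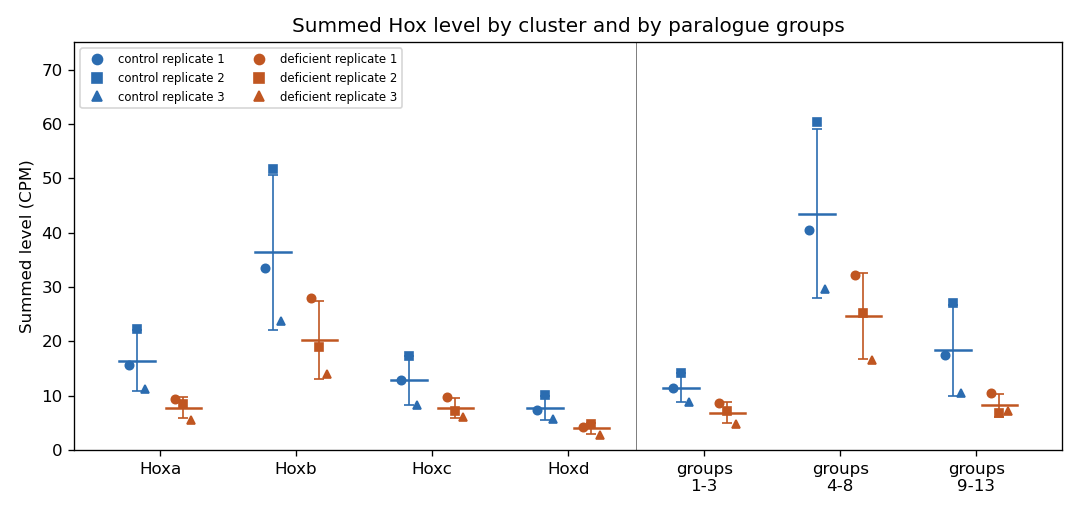
Summed level (CPM on TMM library sizes) of the Hox genes of each cluster (left) and of paralogue groups 1 to 3, 4 to 8 and 9 to 13 (right) in each library; the long bar is the mean and the error bar the SD of 3 libraries per group. The orange points lie below all blue points in clusters A and D and in groups 1 to 3, and overlap them in the other sets; under scaling to embryonic markers clusters A, B and D overlapped, and the orange points of cluster C would lie above all blue points.

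Along the axis, the sum of groups 4 to 8 was 43.5 ± 15.6 CPM in the controls and 24.7 ± 7.89 in the deficient libraries, a ratio of 0.567, and that of groups 9 to 13 was 18.3 ± 8.29 against 8.21 ± 2.05, a ratio of 0.448 (SD, n = 3; exact permutation test, p = 0.2 for both). The composition of the Hox counts, which does not depend on the scaling of the libraries, was examined after these values were seen. Cluster A took 22.0% to 22.9% of the Hox counts in the controls and 18.3% to 21.6% in the deficient libraries. Group 9 took 16.8% to 21.9% against 14% to 16.6%, and group 3 took 9.75% to 11.1% against 11.6% to 12.1%. In these 3 sets the groups did not overlap (exact permutation test, p = 0.1 for each), out of 4 clusters, 13 paralogue groups and 3 ranges of groups looked at, and no adjusted p could fall below 0.1. The shares of clusters B, C and D overlapped, with means of 49.3% and 50.5% for B, 17.5% and 19.5% for C and 10.7% and 10.2% for D.

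The libraries stood in nearly the same order by their Hox sum and by their sum of markers of neural crest and neural tube cells. The 60 listed markers of mesenchymal crest, sensory neurons, autonomic neurons, glial crest and neural tube summed to 364, 470 and 274 CPM in the controls and 266, 210 and 189 in the deficient libraries. Per 100 CPM of these markers, the Hox genes had 19.1, 21.6 and 17.9 CPM in the control libraries and 19.3, 18.7 and 15.1 in the deficient libraries. These ratios overlapped, at 19.5 ± 1.90 against 17.7 ± 2.29 (SD, n = 3; exact permutation test, p = 0.5). By list, to be read against 4.88% of all tested genes, the mesenchymal crest markers had 6 of 14 tested genes called lower and a median of −1.18 on the log2 scale. The sensory neuron list had 3 of 10 and a median of −0.90, and summed to 68.2 to 112 CPM against 61.8 to 68.1. Without Runx1 and Runx3, which blood cells also express and which were singled out after their values were seen, this list summed to 28.9 to 75.6 CPM against 19.6 to 29.4, a ratio of 0.481, and the groups overlapped. The Hox genes then had 21.8 ± 1.38 CPM per 100 CPM of the other 58 markers in the controls and 21.7 ± 1.88 in the deficient libraries (SD, n = 3; exact permutation test, p = 1). The glial list had 1 of 5 and −0.98, with 45.7 to 74.5 CPM against 40.9 to 49.6. The autonomic list had 2 of 5 lower at an adjusted p of 0.1 or less (7.75% of all tested genes) but short of the other limits. Its median was −0.80, with 8.21 to 19.9 CPM against 6.17 to 7.60. The neural tube list had 2 of 15 and −0.77, with 51.2 to 83.3 CPM against 25.4 to 57.6.

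**Figure D5:**
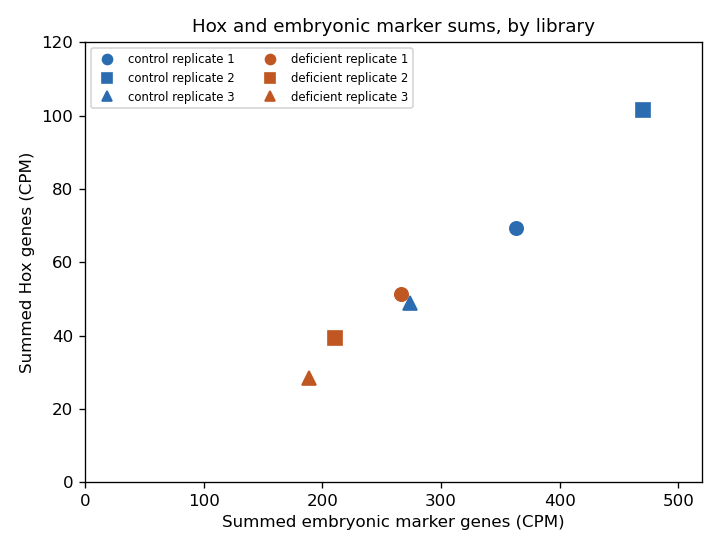
Summed level of the 39 Hox genes (vertical axis, CPM) against the summed level of the 60 listed embryonic markers (horizontal axis, CPM), 1 point per library. The library with the most marker CPM, control replicate 2, has the most Hox CPM, and deficient replicate 3 has the least of both.

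Lists named for cells other than neural crest and neural tube were summed too, though not all of their genes are confined to those cells. The 12 tested macrophage markers had a median of 0.18 on the log2 scale, and their sums were higher in every deficient library than in any control. The 5 tested endothelial markers had a median of 0.06, at 175 to 196 CPM against 200 to 213. Kdr, a receptor for vascular endothelial growth factor singled out after its values were seen, carried most of this sum, and without it the list was at 10.1 ± 0.286 against 10.3 ± 0.456 CPM (SD, n = 3), with overlapping groups. The 6 tested erythroid markers had a median of −1.11, at 16.7 to 60.5 CPM against 9.96 to 15.6. Of the 6, 4 were below 0, against 52.3% of all tested genes. Of all tested genes 4.88% were called lower and 7.75% were lower at an adjusted p of 0.1 or less, and 0 of the 6 were either. Hba-a1 and Hba-a2, named after their values were seen, had log2 fold changes of 0.02 and 0.48. The 60.5 CPM came from control replicate 2, against 24.4 and 16.7 in control replicates 1 and 3. The somite and limb list, whose cells also express Hox genes, had a median of −1.35 on the log2 scale. Of its 4 tested genes, 1 was called lower, Shox2, against 4.88% of all tested genes. At an adjusted p of 0.1 or less 3 were lower, against 7.75%. The tested genes, named after their values were seen, were Lhx2, Lmx1b, Pax9 and Shox2. They are not confined to mesoderm, so this list does not measure mesoderm cells. Tbx6, Meox1, Tcf15 and Tbx5 were too low to be tested. It summed to 95.8 to 115 CPM against 107 to 114, of which Lhx2, singled out after its values were seen, made up 94.3 and 105 CPM in mean. Without Lhx2 the sums were 10.2 to 14.3 CPM against 3.94 to 7.05, a ratio of 0.423, and did not overlap (exact permutation test, p = 0.1). No epithelial marker could be tested, at sums of 1.91 to 3.75 CPM against 0.940 to 1.22.

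Proteins of the TALE class bind DNA together with Hox proteins. Of 9 listed, 8 were tested, all 8 with a log2 fold change below 0 (52.3% of all tested genes), and 3 were called lower (4.88%). The list was chosen with earlier results of these data known, so these counts are descriptions. Meis2 fell from 23.0 ± 3.39 to 11.6 ± 4.06 CPM (log2 fold change −1.0, SE 0.28, adjusted p 0.0949). Meis1 fell from 15.2 ± 4.0 to 7.09 ± 1.92 CPM (−1.10, SE 0.24, adjusted p 0.0653). In both genes every deficient library lay below every control, which held for 16.4% of all tested genes. Of the list, 0 were called lower with scaling to the embryonic markers (0.544% of all genes). The number was 0 without control replicate 1 (0.00%) or deficient replicate 3 (0.119%), and 1 without control replicate 2 (0.426%) or deficient replicate 2 (1.53%).

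Of 33 listed genes that act upstream of Hox genes, in retinoic acid, Cdx, Polycomb, Trithorax and hindbrain pathways, 26 were tested. Their median was −0.10 on the log2 scale, and 4 were called lower, against 4.88% of all tested genes. This list was also chosen with earlier results of these data known. Cyp26b1, which degrades retinoic acid, fell from 6.13 ± 0.74 to 2.30 ± 0.35 CPM (log2 fold change −1.41, SE 0.24, adjusted p 0.0439). Gdf11, a ligand that promotes posterior Hox genes, fell from 6.62 ± 3.54 to 1.83 ± 0.45 CPM (−1.85, SE 0.38, adjusted p 0.0534). Cbx2, a Polycomb subunit, fell from 9.09 ± 3.63 to 3.47 ± 0.73 CPM (−1.38, SE 0.30, adjusted p 0.0600). Rarb, a retinoic acid receptor, fell from 3.18 ± 0.71 to 1.41 ± 0.70 CPM (−1.20, SE 0.40, adjusted p 0.0997), at the edge of the limit. In each of the 4 genes every deficient library lay below every control, which held for 16.4% of all tested genes. Of the list, 1 was called lower with scaling to the embryonic markers (0.544% of all genes). The number was 0 without control replicate 1 (0.00%) or deficient replicate 3 (0.119%), 1 without control replicate 2 (0.426%) and 2 without deficient replicate 2 (1.53%). Cdx1, Cdx2 and Cdx4, named after their values were seen, held at most 2 counts in any library.

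Of the 24 protein-coding genes that lie nearest outside the clusters, 3 on each side, 19 were tested. Of these, 8 were below 0, against 52.3% of all tested genes, and the median was 0.06 on the log2 scale. Cbx3, beside cluster A, was the only gene called, to be read against 4.88% of all tested genes called lower. It fell from 10.3 ± 2.41 to 5.50 ± 1.63 CPM (log2 fold change −0.90, SE 0.25, adjusted p 0.0775, edgeR). Nfe2l2 and Tax1bp1 were singled out after their values were seen. Both were higher in every deficient library than in any control, which held for 2101 of the 13961 tested genes. Their adjusted p were 0.0763 and 0.0949 (edgeR), but their log2 fold changes of 0.24 and 0.22 were short of the limit. Within the clusters lie 43 genes of other kinds, mostly antisense and microRNA genes, of which 17 had no count and 3 were tested. Together these 43 had 17.4 to 23.8 CPM in the control libraries and 10.02 to 14.6 in the deficient libraries. Mature microRNAs are not caught by poly(A) libraries, so no value is given for them.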

How the data were processed

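Strand-specific poly(A) RNAseq libraries were made from sorted NCCs. The authors trimmed reads with cutadapt 1.18, checked them with FastQC 0.11.7, aligned them to GRCm38 with STAR and counted them per gene with featureCounts. The deposited table holds these counts, whole numbers without normalization, for 46983 genes. The annotation release and the strand setting of the counting are not given in the sources used here.

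Identifiers were matched to GENCODE M21, where 46488 had a name. 38 of the 39 Hox identifiers carried the same version. The members and the gene lists were chosen with earlier results of these data known, so the lists are descriptions. The test was edgeR's quasi-likelihood F test (edgeR 4.0.16, R 4.3.3) with condition alone in the model and robust estimation, after filterByExpr (count of 10, total of 15) and TMM normalization. P-values were adjusted by Benjamini-Hochberg over all 13961 tested genes. The study used limma, and limma-voom (limma 3.58.1) and DESeq2 1.42.0 were run as alternatives. Standard errors come from the F statistic. Sums over members used CPM of all members, unfiltered, and exact two-sided permutation tests over libraries. Libraries held 8191219 to 19808620 counts. The script was tested on simulated data. Sums, promoter windows and figures were made with Python 3.11.15, numpy 2.4.6, pandas 2.3.3, scipy 1.17.1 and matplotlib 3.10.9.

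Members with a mean of at least 2 CPM, and any called, are given with every library, and the rest by ranges and counts. Of the other lists the called genes are named, except for a result that is not reported here, and any gene outside this rule is marked in the text. Alternatives were DESeq2, limma-voom, a replicate block, library totals, scaling to the median of 35 embryonic markers, 2 other filters, an adjusted p of at most 0.05 and each library left out.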

Additional observations from a re-analysis of the deposited data

How the results depend on the processing

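The median log2 fold change of the tested Hox genes, −0.76, stayed between −0.81 and −0.71 with DESeq2, limma-voom, library totals, the replicate block and other filters, and between −1.07 and −0.57 with a library left out. The number called lower, 1, was 4 with DESeq2, 2 with limma-voom, 3 with library totals, 6 without a filter on low counts, 0 at an adjusted p of at most 0.05 and 1 with a filter of 0.5 CPM. Leaving out a library gave 0 to 8, with 8 without control replicate 3, 4 without deficient replicate 1 and 0 without any of the other 4, where the calls over all genes ran from 0 to 264. At an adjusted p of at most 0.1 with no limit on fold or level, 4 Hox genes passed with DESeq2, 2 with limma-voom, 4 with library totals, 6 without a filter and 0 to 11 with a library left out. The summed Hox level kept its direction with library totals and in each fit that left out a library, at −1.11 to −0.57 on the log2 scale against −0.88.

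Scaling the libraries to 35 embryonic markers takes their median as unchanged, and moved the median log2 fold change of all genes from −0.02 to 0.83. Under it 0 Hox genes were called, 0 passed an adjusted p of at most 0.1, the median Hox log2 fold change was 0.10, the log2 ratio of the summed Hox level 0.011, and those of clusters A, B, C and D −0.17, 0.045, 0.16 and −0.057. Hoxa3 (0.11), Hoxb3 (0.10), Hoxb4 (0.34), Hoxb5 (0.34), Hoxb8 (0.36) and Hoxc6 (0.32) turned to higher, with adjusted p from 0.413 to 0.837 (edgeR).

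Of the TALE cofactors, 3 were called, 0 with scaling to embryonic markers or at an adjusted p of at most 0.05, and 0 to 4 with a library left out. Of the Hox regulators, 4 were called, 1 with that scaling, 1 at that limit, and 0 to 5 with a library left out.

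Whether control and deficient libraries were paired is not known. By the replicate numbers of the sample titles, deviations of same-numbered libraries correlated at 0.04, −0.04 and 0.37. The column names of the count table number the deficient libraries from 2 to 4 instead. By those names, control 2 with deficient replicate 1 correlated at 0.34 and control 3 with deficient replicate 2 at 0.0022. With 3 libraries in a group, such values cannot show whether either numbering paired the libraries. With a replicate block on the numbers of the titles, 7 Hox genes were called lower (8.19% of all genes), 9 passed an adjusted p of at most 0.1 (14.7%), and the calls over all genes rose from 689 to 1164. Depth limits the low members: 18 of 39 could not be tested.

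Alternatives added after the values were seen left out list members. The log2 ratio of the sum was −1.24 for the somite and limb list without Lhx2 (0.04 with it), 0.032 for the endothelial list without Kdr (0.16) and −1.06 for the sensory list without Runx1 and Runx3 (−0.44).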
